A study of Mus musculus with 3 samples.

Results

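Genes that set blood vessel endothelium and its subtypes apart, or that report its activation, were examined in RNA of lymphatic endothelial cells from the mouse large intestine. The set holds 32 genes, taken by symbol from the 24091 genes of the deposited tables, and all 32 were found. The single group of the study is lymphatic endothelium of C57BL/6 mice, collected by flow sorting from digested intestine with antibodies to markers that include CD31, podoplanin and LYVE1. It consists of 3 libraries, called replicates 1, 2 and 3 below, and the labels name no allele, agent, age or control group. The names of the deposited tables carry the word Water, which no label explains. No label tells whether each library is a mouse of its own, and the spread given below may therefore be technical.

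Endothelium of blood vessels and of lymphatic vessels shares the surface protein CD31 and many junction genes, but differs in the proteins that govern exchange, blood clotting and leukocyte entry. Capillaries carry diaphragm and glycocalyx proteins, sprouting tip cells secrete guidance and growth signals, and veins and venules store von Willebrand factor and P-selectin and display adhesion molecules when inflamed. In the gut, venules of the lamina propria and of lymphoid tissue present MAdCAM-1, the address by which lymphocytes enter the mucosa. Some of the 32 genes are also known from lymphatic vessels, fibroblasts, platelets, leukocytes or epithelium, and RNA pooled from many cells does not show which cell a transcript came from. In such RNA, fewer cells of a type and less RNA per cell cannot be told apart.

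Levels are in TPM, which scales each transcript's reads by its length and by the size of the library, so that different genes can be set side by side. Most low values of genes with 1 transcript lay near regular steps. The best-fitting spacing put the worth of 1 TPM on 1000 bases at 32.6 fragments in replicate 1, 28.7 in replicate 2 and 26.2 in replicate 3. The lymphatic identity list of 11 genes summed to 1692, 1771 and 984 TPM in replicates 1, 2 and 3. The list of 10 fibroblast genes summed to 203, 139.7 and 507 TPM, that of 10 smooth muscle and pericyte genes to 233, 188 and 419 TPM, and that of 10 macrophage genes to 251, 175 and 555 TPM. The list of 10 epithelial genes had the largest of these sums, at 15089, 16093 and 17343 TPM, and that of 10 lymphocyte genes summed to 9.96, 10.9 and 29.7 TPM. Replicate 3 therefore had the lowest sum of lymphatic genes and the highest sum for each of these other cell types. Of the 10 epithelial genes, however, 6 were highest in replicate 3 and 4 in replicate 2. Their median was highest in replicate 2, at 958, 1077 and 1019 TPM in replicates 1, 2 and 3. The part of these differences between libraries in the results below was not tested.

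Promoters were available for 20 of the 32 genes, and the 250 bases before the start site of 6 of them are shown, because the genes fall into the 2 library patterns that recur through the set. Ackr1, Cd34 and Madcam1 were highest in replicate 3 and lowest in replicate 2, whereas Emcn, Lrg1 and Icam1 were highest in replicate 1 and lowest in replicate 3. Sequences are from RefSeq (GRCm38.p6, the assembly of mm10) and run 5′ to 3′ on the strand of the gene. The Emcn window precedes a transcript start inside the gene, so its last 16 bases lie within the gene span given below. In the first 4, capitals mark CAGGAAG on either strand, the core bound by ETS factors, the transcription factor family best known for driving endothelial genes. Ackr1 spans chr1:173333504-173333753 on the minus strand, Cd34 chr1:194938571-194938820 on the plus strand, Emcn chr3:137340828-137341077 on the plus strand and Lrg1 chr17:56121947-56122196 on the minus strand.
Ackr1: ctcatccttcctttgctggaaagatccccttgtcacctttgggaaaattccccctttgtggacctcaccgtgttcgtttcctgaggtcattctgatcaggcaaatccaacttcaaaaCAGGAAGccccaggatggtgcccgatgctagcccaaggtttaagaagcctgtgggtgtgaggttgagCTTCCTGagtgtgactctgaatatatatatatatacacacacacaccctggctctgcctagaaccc
Cd34: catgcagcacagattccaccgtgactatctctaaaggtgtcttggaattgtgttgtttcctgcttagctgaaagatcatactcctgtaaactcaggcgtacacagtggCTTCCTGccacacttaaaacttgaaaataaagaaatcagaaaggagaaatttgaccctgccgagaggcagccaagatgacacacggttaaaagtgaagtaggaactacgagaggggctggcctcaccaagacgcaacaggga
Emcn: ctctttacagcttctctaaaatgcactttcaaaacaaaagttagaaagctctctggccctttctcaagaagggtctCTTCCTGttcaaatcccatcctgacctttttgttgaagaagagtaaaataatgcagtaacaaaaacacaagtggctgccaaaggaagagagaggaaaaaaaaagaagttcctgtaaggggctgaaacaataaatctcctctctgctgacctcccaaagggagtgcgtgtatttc
Lrg1: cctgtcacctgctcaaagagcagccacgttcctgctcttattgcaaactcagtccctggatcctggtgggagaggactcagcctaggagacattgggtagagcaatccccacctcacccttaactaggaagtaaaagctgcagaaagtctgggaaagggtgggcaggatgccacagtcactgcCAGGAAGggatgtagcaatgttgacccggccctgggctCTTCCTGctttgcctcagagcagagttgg

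In Madcam1 (chr10:79664309-79664558, plus strand) and Icam1 (chr9:21015690-21015939, plus strand), capitals mark a form of the binding site of NF-kB, the factor that inflammatory cytokines activate. It was searched as GGNNTTTCC on both strands, and each of these promoters holds 2 matches.
Madcam1: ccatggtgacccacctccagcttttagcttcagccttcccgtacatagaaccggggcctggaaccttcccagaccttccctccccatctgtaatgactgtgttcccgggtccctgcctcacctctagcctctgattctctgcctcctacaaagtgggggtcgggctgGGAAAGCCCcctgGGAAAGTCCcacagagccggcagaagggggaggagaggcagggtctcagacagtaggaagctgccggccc
Icam1: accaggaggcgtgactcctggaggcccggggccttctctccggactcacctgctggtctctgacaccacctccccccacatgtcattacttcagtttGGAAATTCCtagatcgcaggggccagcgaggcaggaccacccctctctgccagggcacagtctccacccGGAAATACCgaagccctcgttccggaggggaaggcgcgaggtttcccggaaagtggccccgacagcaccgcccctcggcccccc

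CAGGAAG was present in the 250 bases before the start of 10 of the 20 members (Ackr1, Apln, Cd34, Egfl7, Emcn, Fbln5, Kcne3, Lrg1, Rasip1 and Sele), against 12.1% of the 27025 genes with such a window. It lay in 2 of the 7 members with a window that were highest in replicate 3 and lowest in replicate 2, and in 5 of the 8 that were highest in replicate 1 and lowest in replicate 3. GGNNTTTCC was held by 4 of the 20 members (Egfl7, Icam1, Madcam1 and Selp) and by 5.62% of all genes, and 2 of these 4 had each library order. The motifs were chosen after promoters of the members had been searched, and a match is a run of letters and not a site shown to be bound.

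A level of 1 TPM or more in all 3 libraries was reached by 28 of the 32 genes, against 53.4% of all genes of the table. The median member stood at 24.9, 22.5 and 24 TPM in replicates 1, 2 and 3, against 14.8, 18.0 and 17.8 TPM for the median of the 12862 genes that reached 1 TPM in every library. Together the 32 genes made up 0.191%, 0.164% and 0.190% of all TPM. Levels within the set were wide apart, with Ly6a at 305 ± 127 TPM as its highest gene (SD, n = 3) and Sele, listed at 0 in 2 of the 3 libraries, as its lowest. Of the 4 genes that missed the threshold, Apln and Sele lay below 1 TPM in every library, and Aplnr and Selp in some.

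**Figure D1:**
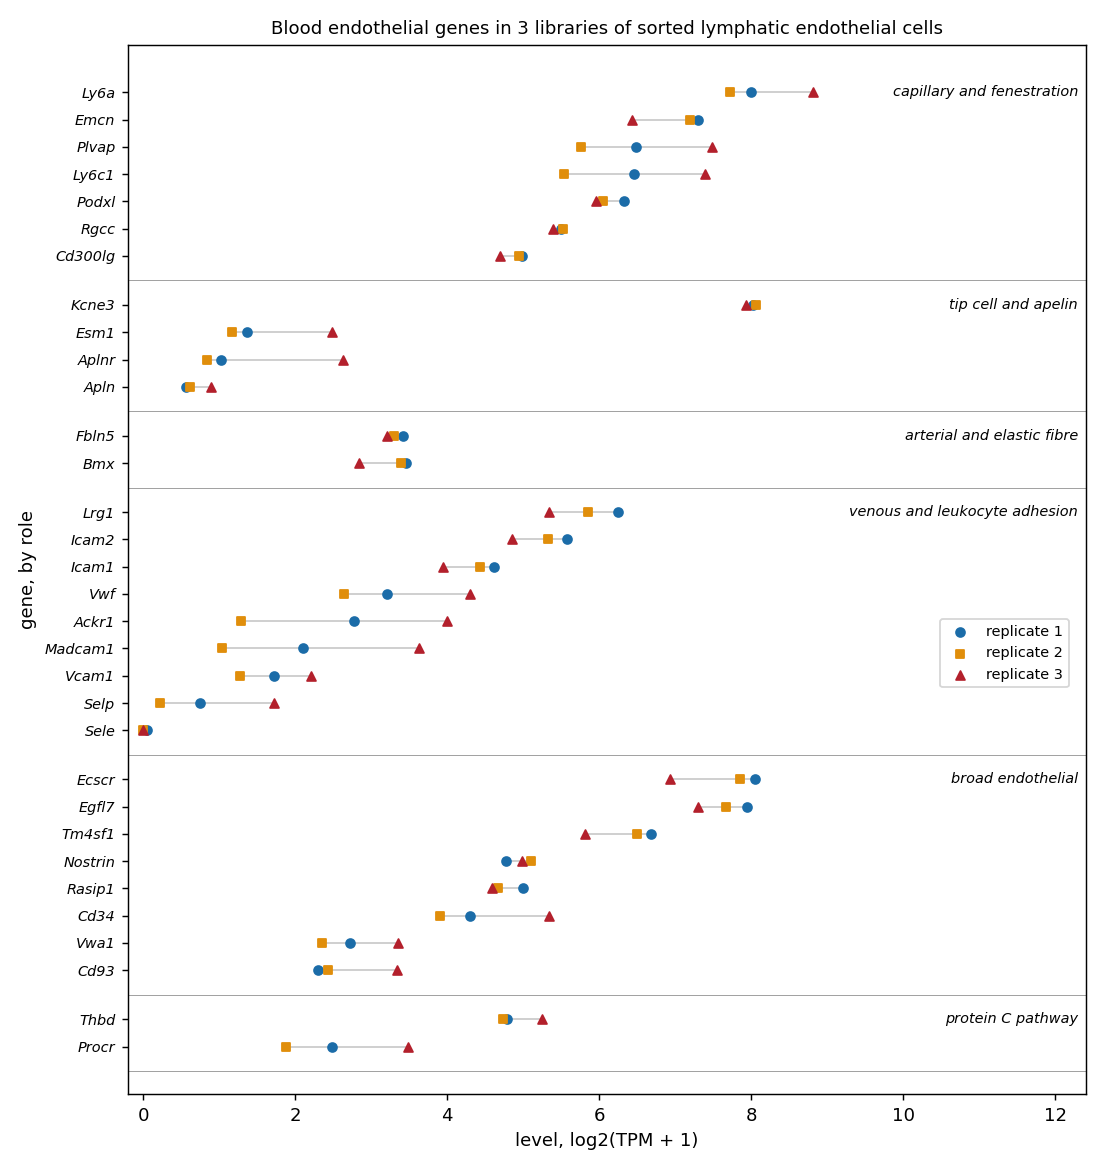
Level of the 32 genes as log2(TPM + 1) on the horizontal axis, with 1 point for each of the 3 libraries and the genes ordered by role and by mean level. Replicate 3 is the rightmost point for Plvap, Ly6c1, Vwf, Ackr1 and Madcam1 and the leftmost for Emcn, Lrg1, Icam1, Icam2 and Ecscr.

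The genes of capillaries and of the fenestrated vessel wall had the highest median level of the 6 classes in every library, and all 7 reached 1 TPM in every library. Plvap (Entrez 84094, chromosome 8, 71497753 to 71511806) encodes the protein of the diaphragms that close endothelial fenestrae and caveolae. It had 88.2, 53.4 and 178 TPM in replicates 1, 2 and 3. Emcn (Entrez 59308, chromosome 3, 137341062 to 137431069), which encodes the sialomucin endomucin of capillaries and veins, had 156, 146 and 85.7 TPM. The 2 genes thus had opposite orders over the libraries: replicate 3 was highest for Plvap and lowest for Emcn.

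Set against each other, Plvap amounted to 0.564, 0.367 and 2.08 times Emcn in replicates 1, 2 and 3, a ratio that varied 5.67-fold. Emcn amounted to 0.287, 0.238 and 0.273 times Lyve1, the hyaluronan receptor gene used in the sort, a ratio that varied 1.20-fold. Plvap varied 6.49-fold relative to Lyve1. These ratios were chosen after the values had been seen.

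Ly6c1, which encodes a GPI-anchored surface protein of mouse capillary endothelium and of monocytes, had 86.8, 45.3 and 167 TPM. Ly6a, which encodes the related protein Sca-1 of endothelium, stromal cells and blood progenitors, had 254, 211 and 449 TPM. Both were highest in replicate 3 and lowest in replicate 2, and their genes lie 45986 bases apart on chromosome 15. Ly6c1 has a near-identical copy, Ly6c2, so that reads may have been divided between the pair. Ly6c2, named here after its values were seen, had 4.91, 2.83 and 10.4 TPM, and the ratio of Ly6c1 to Ly6c2 stayed at 16.6 ± 0.970 (SD, n = 3).

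The remaining capillary genes varied little. Podxl, a sialomucin gene of the luminal surface, had 79.1, 65.2 and 60.9 TPM. Rgcc, a regulator of the cell cycle that is enriched in capillary endothelium, had 44.3, 45.2 and 40.9 TPM. Cd300lg, also called nepmucin and found on capillaries and high endothelial venules, had 30.7, 29.8 and 25.0 TPM. The lowest library of each of these 3 genes was replicate 3, at ratios of 0.770, 0.923 and 0.812 to replicate 1.

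Genes of tip cells and of the apelin pathway were near the threshold, with the exception of Kcne3. Esm1 (Entrez 71690, chromosome 13, 113209659 to 113218104), which encodes the tip cell proteoglycan endocan, had 1.59, 1.24 and 4.61 TPM, or about 98, 67 and 229 estimated fragments. Aplnr, the apelin receptor gene of veins and growing vessels, had 1.04, 0.787 and 5.17 TPM, or about 118, 79 and 475 fragments. Its ligand gene Apln had 0.471, 0.531 and 0.850 TPM, or about 45, 45 and 66 fragments. All 3 were highest in replicate 3, by 2.91-fold, 4.99-fold and 1.81-fold over replicate 1. Receptor exceeded ligand in each library, at 2.20, 1.48 and 6.08 times.

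Kcne3 (Entrez 57442, chromosome 7, 100176507 to 100184869) encodes an accessory subunit of potassium channels that is known from tip cells and also from colonic crypt epithelium, where it pairs with KCNQ1. It had 259, 266 and 243 TPM, an SD of 0.07 on the log2 scale. This was the smallest spread of the 30 members with a mean of 1 TPM or more. The 10 epithelial genes summed to 15089, 16093 and 17343 TPM in replicates 1, 2 and 3, and Kcnq1 had 51.3, 61.1 and 64.2 TPM. Kcne3 lay near the levels of Ecscr and Ly6a, and its share from epithelium was not tested.

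Arterial and elastic fibre genes were low, and ranged 1.62-fold between libraries for Bmx and 1.18-fold for Fbln5. Bmx, a tyrosine kinase gene of arterial endothelium, had 9.99, 9.50 and 6.16 TPM. Fbln5, which encodes the elastic fibre protein fibulin 5 of vessel walls and fibroblasts, had 9.65, 8.89 and 8.21 TPM. Both were highest in replicate 1 and lowest in replicate 3. The 10 fibroblast genes were all highest in replicate 3, and their part in the level of Fbln5 was not tested.

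The venous and leukocyte adhesion genes divided into 2 parts. Vwf (Entrez 22371, chromosome 6, 125552948 to 125686679), the gene of von Willebrand factor, had 8.20, 5.22 and 18.7 TPM. Ackr1 (Entrez 13349, chromosome 1, 173331886 to 173333503), the atypical chemokine receptor gene of venules, had 5.85, 1.45 and 15 TPM, or about 182, 39 and 374 estimated fragments. Madcam1 (Entrez 17123, chromosome 10, 79664559 to 79668542) had 3.30, 1.06 and 11.4 TPM. Each of the 3 was highest in replicate 3 and lowest in replicate 2, and Ackr1 and Madcam1 differed 10.4-fold and 10.8-fold between these libraries.

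Selp, which encodes P-selectin of endothelial granules and platelets, had 0.676, 0.161 and 2.30 TPM, or about 71, 15 and 195 fragments. Its range of 14.3-fold was the widest among members above 0 in every library, and its value in replicate 2 rests on the fewest fragments of the 15 members with an estimate. Sele (Entrez 20339, chromosome 1, 164039614 to 164058487), which encodes E-selectin, a gene that cytokines induce in endothelium, had 0.0341 TPM in replicate 1 and was listed at 0 in replicates 2 and 3. The selectin genes are neighbours on chromosome 1, 56776 bases apart. The 10 platelet and megakaryocyte genes summed to 36.7, 25.3 and 62.3 TPM, of which Pf4 took 26.3, 15.1 and 52.1, and 3 of them reached 1 TPM in every library. None of these 10 genes was at 0 in all libraries, but their median was 0.154, 0.269 and 0.235 TPM in replicates 1, 2 and 3. Their part in Selp and Vwf was not tested.

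Vcam1, the ligand gene for the integrin VLA-4 on lymphocytes, had 2.28, 1.43 and 3.63 TPM, or about 243, 134 and 311 estimated fragments. Icam1, which binds the integrin LFA-1 and is induced by cytokines, had 23.6, 20.6 and 14.3 TPM. Icam2, its constitutive relative on resting endothelium, had 46.8, 39.3 and 27.8 TPM. Lrg1, which encodes a secreted glycoprotein of venules, had 74.9, 56.6 and 39.3 TPM. Vcam1 followed Vwf and Ackr1 in its order, whereas Icam1, Icam2 and Lrg1 were highest in replicate 1 and lowest in replicate 3. As a result the ratio of Icam1 to Vcam1 stood at 10.3, 14.4 and 3.95 in replicates 1, 2 and 3.

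All 8 broadly endothelial genes reached 1 TPM in every library. Ecscr (Entrez 68545, chromosome 18, 35713086 to 35722413), which encodes a surface protein of endothelial migration, had 263, 230.2 and 121 TPM. Egfl7, which encodes a secreted endothelial matrix protein and hosts a microRNA gene, had 245, 202 and 157 TPM. Tm4sf1, a tetraspanin-like gene of endothelial projections, had 102, 89.4 and 55.3 TPM, and Rasip1, a RAS-binding gene needed for lumen formation, had 31.0, 24.5 and 23.0 TPM. These 4 were highest in replicate 1 and lowest in replicate 3.

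Cd34, a sialomucin gene of capillaries, tip cells and fibroblasts, had 18.7, 13.9 and 39.5 TPM. Cd93, a C-type lectin-like receptor gene of endothelium and myeloid cells, had 3.93, 4.38 and 9.11 TPM. Vwa1, which encodes a basement membrane protein, had 5.57, 4.11 and 9.19 TPM. All 3 were highest in replicate 3. Nostrin, an adaptor gene for endothelial nitric oxide synthase, had 26.2, 33.4 and 30.6 TPM and was the only one of the 30 members with a mean of 1 TPM or more that was highest in replicate 2 and lowest in replicate 1.

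Both genes of the protein C pathway were highest in replicate 3. Thbd, the gene of thrombomodulin, which turns thrombin towards activating protein C, had 26.6, 25.7 and 37.0 TPM, or about 3060, 2591 and 3418 estimated fragments. Procr, the endothelial protein C receptor gene, had 4.62, 2.67 and 10.2 TPM. Thbd lies 28462 bases from Cd93 on chromosome 2, and replicate 3 exceeded replicate 1 by 1.39-fold for Thbd and 2.32-fold for Cd93.

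Of the 30 members with a mean of 1 TPM or more, 14 were highest in replicate 3, intermediate in replicate 1 and lowest in replicate 2, an order held by 9.51% of the 13606 genes with such a mean. A further 12 were highest in replicate 1, intermediate in replicate 2 and lowest in replicate 3, an order held by 11.6% of these genes. Replicate 3 was highest for 15 members and 41.1% of all genes, replicate 1 for 12 and 16.9%, and replicate 2 for 3 and 41.5%. Replicate 2 was lowest for 14 members and 14.9% of all genes, replicate 3 for 14 and 22.4%, and replicate 1 for 2 and 62.2%. In TPM as deposited, the share of members highest in replicate 3 was thus near that of all genes, whereas the share lowest in replicate 1 was not. These shares depend on the scale. With TPM rescaled without ribosomal protein genes, replicate 3 was highest for 15 members and 37.0% of all genes. Under scaling by the median of ratios over genes, it was highest for 15 members and 31.0%. The factors of that scaling were 0.897, 1.05 and 1.06 in replicates 1, 2 and 3. The share lowest in replicate 1 is not given for these scales. In TPM as deposited, the 2 orders covered 26 of the 30 members and 21.1% of all genes. The first order was that of Plvap, Esm1, Aplnr, Vwf, Selp, Ackr1, Madcam1, Cd34, Ly6c1, Ly6a, Vcam1, Vwa1, Thbd and Procr. The second was that of Emcn, Podxl, Cd300lg, Icam1, Icam2, Bmx, Fbln5, Lrg1, Egfl7, Ecscr, Rasip1 and Tm4sf1.

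Replicate 3 exceeded replicate 1 by 1.39-fold to 4.99-fold in the 14 genes of the first order (median 2.16), and replicate 1 exceeded replicate 2 by 1.04-fold to 4.19-fold (median 1.59). In the 12 genes of the second order, replicate 3 stood at 0.460 to 0.850 times replicate 1 (median 0.612). With the libraries set to a common scale by the median of ratios over genes, 15 members had the first order and 14 the second, against 11.3% and 26.8% of all genes. With values divided by the pan-endothelial sum of the library, a scaling chosen after the data were examined, 15 had the first order and 3 the second, against 8.68% and 0.919% of all genes. On that scale replicate 3 was highest for 22 of the 30 members and for 87.3% of all genes. The orders chose these genes, so the folds describe them and support nothing further. Replicates have no order of their own, and no condition in the labels separates them.

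**Figure D2:**
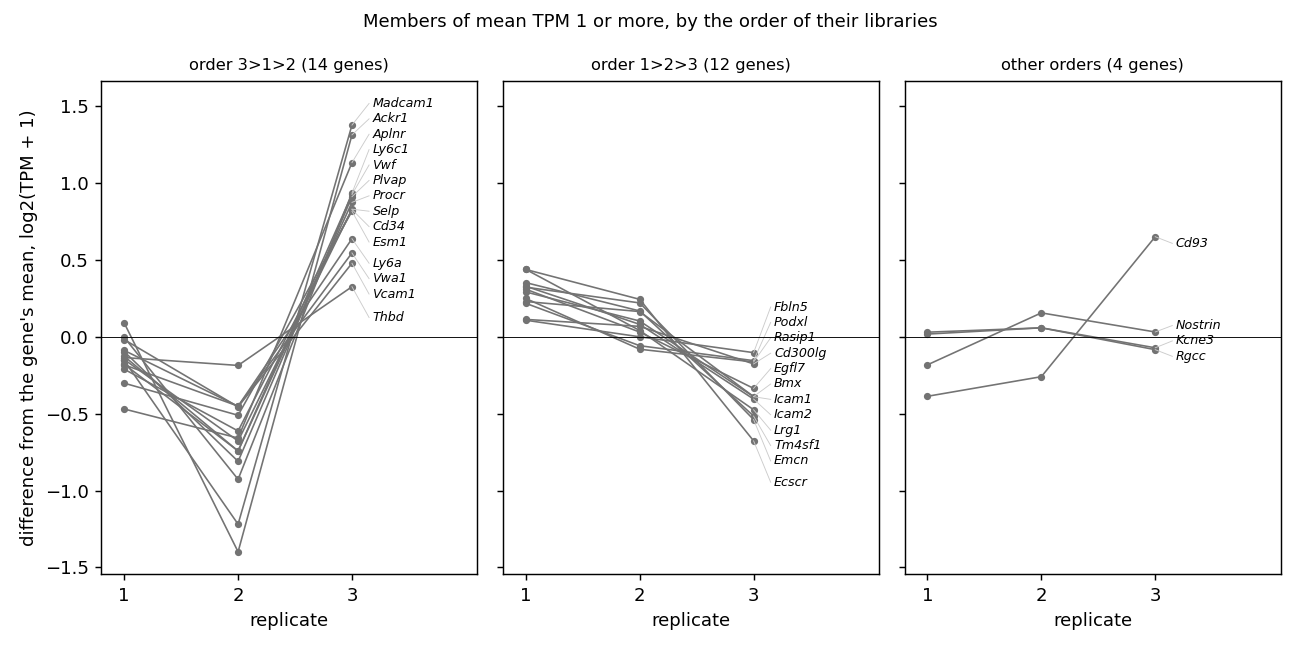
Difference of log2(TPM + 1) from the gene's own mean on the vertical axis, for replicates 1, 2 and 3, in members with a mean of 1 TPM or more. Each line is 1 gene: 14 genes peak in replicate 3 with their lowest value in replicate 2, 12 are highest in replicate 1 and lowest in replicate 3, and 4 have other orders.

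Genes of some other cell types that the sort could hold shared the first order. It was held by 10 of 10 fibroblast genes, 9 of 10 smooth muscle and pericyte genes and 9 of 10 macrophage genes, but by 1 of 14 pan-endothelial genes and 0 of 11 lymphatic identity genes. Among genes with a mean of 1 TPM or more in the remaining lists, 3 of 10 epithelial, 2 of 6 lymphocyte, 1 of 4 neutrophil, 1 of 3 platelet and 0 of 1 mesothelial genes had it. The second order was held by 8 of 14 pan-endothelial genes and 5 of 11 lymphatic identity genes, and 10 of the 11 lymphatic identity genes were lowest in replicate 3. Of 16 other blood endothelial genes, 3 had the first order and 5 the second. Pecam1, the gene of CD31, had 117, 109 and 103 TPM, and Cdh5, the gene of VE-cadherin, 41.4, 42.8 and 36.9 TPM. The part of fibroblasts, pericytes and macrophages in the levels of Cd34, Ly6a, Procr, Vcam1 and Ly6c1 was not tested.

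**Figure D3:**
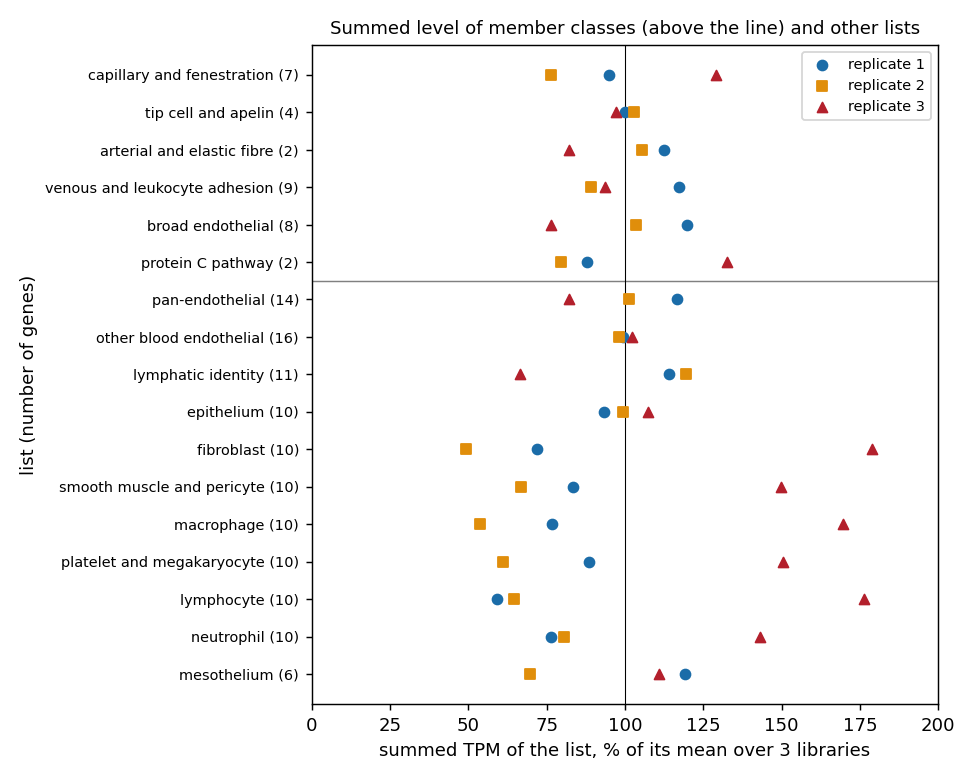
Summed TPM of each list as a percentage of its mean over the 3 libraries, with the 6 classes of members above the line and 11 other lists below it. Replicate 3 lies furthest right for the capillary and protein C classes. Of the 7 capillary genes, 3 (Ly6a, Plvap and Ly6c1) were highest in replicate 3 and 4 were lowest there. Below the line it lies furthest right for other blood endothelial, epithelial, fibroblast, smooth muscle, macrophage, platelet, lymphocyte and neutrophil genes. It lies furthest left there for pan-endothelial and lymphatic identity genes. Most of the neutrophil sum is Ly6g (26.1, 24.5 and 47.9 TPM), and 3 of the 4 neutrophil genes with a mean of 1 TPM or more were highest in replicate 2. Most of the platelet sum is Pf4.

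Spread between libraries was compared with that of genes at a like level, a gene being called when its SD of log2(TPM + 1) lay above the 95th percentile of its bin among 20 bins of mean level. This held for 13 of the 30 members, against 5.0% of all 13606 genes, which the percentile fixes. Ackr1 (SD 1.36), Madcam1 (1.30), Aplnr (0.98), Ly6c1 (0.93), Plvap (0.86), Vwf (0.85), Procr (0.82), Cd34 (0.74) and Ly6a (0.57) were called with their highest value in replicate 3. Ecscr (0.59), Emcn (0.47), Lrg1 (0.46) and Tm4sf1 (0.46) were called with their highest value in replicate 1. Without replicate 3, Ackr1, Ly6c1 and Plvap alone were called, 3 members in all, so the other calls rest on that library. Selp was not called, since genes at its low level have a threshold of 1.48.

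**Figure D4:**
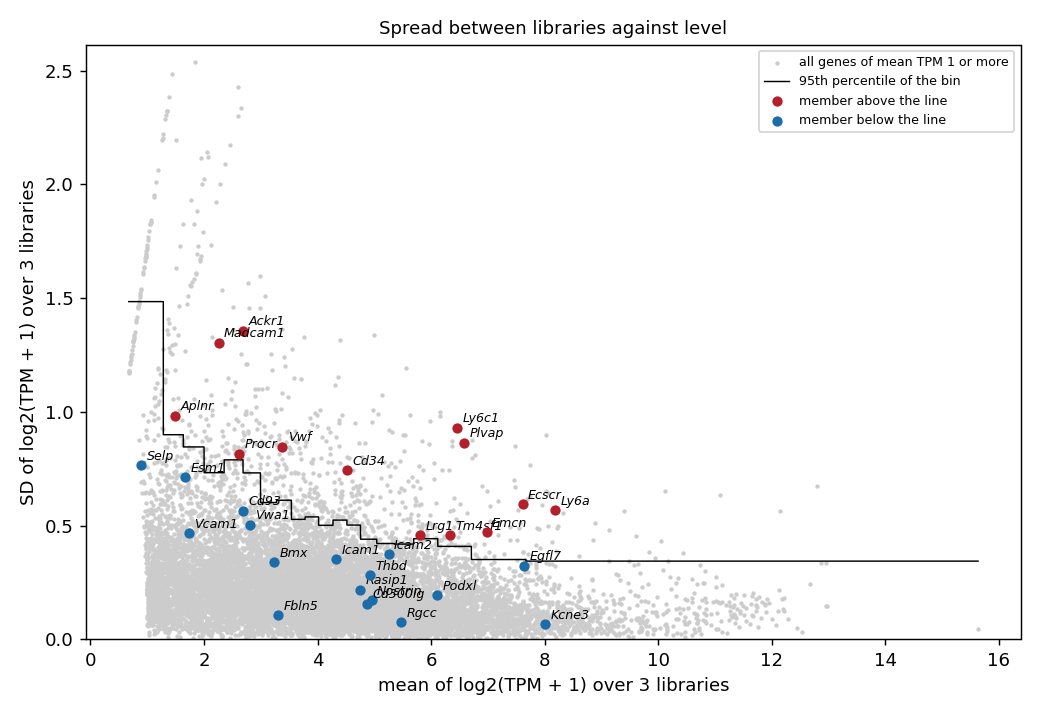
SD of log2(TPM + 1) over the 3 libraries against its mean, for 13606 genes with a mean of 1 TPM or more (grey) and 30 members (coloured). The line is the 95th percentile of each bin of level: 13 members lie above it, among them Ackr1, Madcam1, Plvap and Ly6c1, and Kcne3 and Rgcc lie close to 0.

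The classes were then set against 14 pan-endothelial genes within each library, as differences of mean log2(TPM + 1). Capillary and fenestration genes exceeded the pan-endothelial list by 0.96 ± 0.30, with 0.92, 0.69 and 1.28 in replicates 1, 2 and 3 (SD, n = 3). Broadly endothelial genes differed from it by -0.25 ± 0.13. The protein C pathway (-1.64 ± 0.62), arterial and elastic fibre genes (-2.15 ± 0.12), tip cell and apelin genes (-2.45 ± 0.54) and venous and leukocyte adhesion genes (-2.49 ± 0.49) lay below it. Each of the 6 classes kept its sign in all 3 libraries. The pan-endothelial list itself summed to 1136, 988 and 801 TPM in replicates 1, 2 and 3, and 12 of its 14 genes were lowest in replicate 3. Its part in how the class differences varied between libraries was not tested. No p-value is given for scores over chosen genes, and an exact permutation test that flips signs (two-sided) could not go below 0.25 with 3 libraries.

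As means, the tip cell, arterial and venous classes differed from each other by less than the SD of the tip cell or of the venous class. The tip cell mean includes Kcne3 at 256 TPM, beside Esm1, Aplnr and Apln at 2.48, 2.33 and 0.617 TPM. With medians, the differences were -3.78 for tip cell, -2.09 for arterial and -2.69 for venous genes. The venous difference of means was -2.51, -2.97 and -1.98 in replicates 1, 2 and 3, and the protein C one -1.88, -2.11 and -0.94. Both were nearest to the pan-endothelial list in replicate 3, the library in which 12 of the 14 genes of that list were lowest. Only the arterial class was further below the list in replicate 3, at -2.29, than in replicates 1 and 2, at -2.08 and -2.07.

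**Figure D5:**
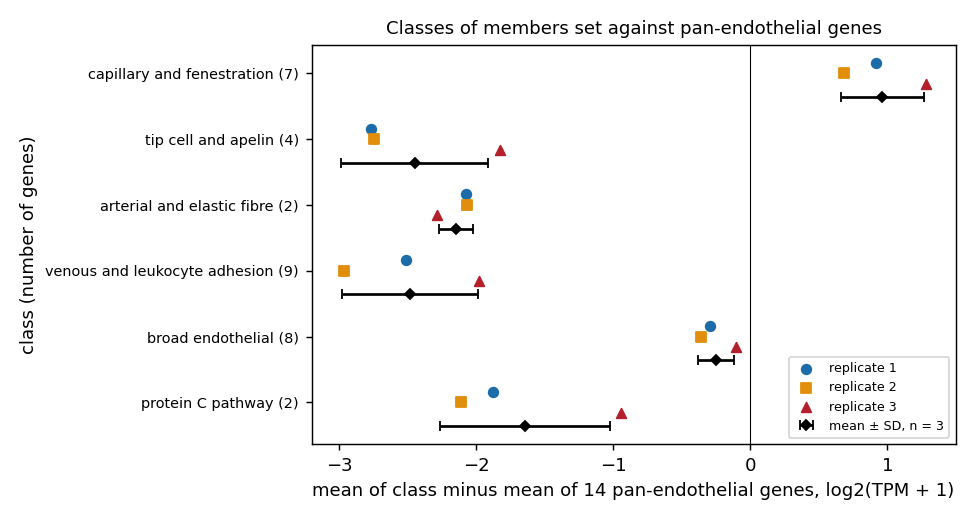
Mean log2(TPM + 1) of each class of members minus that of 14 pan-endothelial genes, with 1 point for each of the 3 libraries and the mean ± SD below them. The capillary and fenestration class lies above 0 in every library and the other 5 classes below 0.

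Genes that work with the members were counted from fixed lists. Of 12 leukocyte counter-receptor and mucosal homing genes, 4 reached 1 TPM in every library, led by Chst4 (51.8 ± 3.86 TPM) and Cd44 (26 ± 3.97). Chst4 encodes a sulfotransferase that makes L-selectin ligands, and Cd44 is a hyaluronan receptor gene. Chst4 had 49.4, 56.2 and 49.8 TPM in replicates 1, 2 and 3, and its share from each cell type was not tested. Glycam1, the mucin gene of high endothelial venules, was listed at 0 in all 3 libraries, beside Madcam1 at 5.25 ± 5.44, or 2.18 without replicate 3. Of 16 NF-kB response genes, 13 reached 1 TPM, led by the inhibitor gene Nfkbia (142 ± 17.0) and by Irf1 (97.2 ± 15). None of the 13 NF-kB response genes with a mean of 1 TPM or more was called for its spread and none had the order of Vcam1 and Selp, counts near the 5.0% and 9.51% of all genes.

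Of 10 coagulation and protein C partner genes, 9 reached 1 TPM, led by Anxa2 (827 ± 21.3), a plasminogen receptor gene, and Pros1 (50.8 ± 8.86), the gene of protein S, the cofactor of activated protein C. Pros1 had 53.3, 58.2 and 41.0 TPM and was lowest in replicate 3, the library in which Thbd and Procr were highest. Of 9 apelin and tip cell partner genes, 8 reached 1 TPM, led by Ackr3 (140.4 ± 33), a chemokine scavenger gene, and Kcnq1 (58.8 ± 6.73). Of 16 other blood endothelial genes, 15 reached 1 TPM, led by Aqp1 (199 ± 13.8), a water channel gene, and Car4 (194 ± 82.8), a carbonic anhydrase gene that colonocytes also use.

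Exons of 10 members overlap those of another gene in GENCODE M21, and no label says whether counting used strand. Ackr1 shares exon sequence with Cadm3 on the same strand, and Egfl7 and Rasip1 with genes on both strands. Cd34, Ecscr, Icam1, Kcne3, Selp, Vcam1 and Vwa1 overlap genes on the opposite strand. Reads from opposite-strand pairs cannot be told apart without strand, and reads in exon sequence shared on 1 strand cannot be told apart with it.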

How the data were processed

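The deposited tables, 1 per library, give TPM values computed by the authors, per the file headers, with Entrez ID and symbol. The submitters' processing notes name mm10, Cell Ranger 6.0.1 and HTSeq; how TPM was calculated and the annotation used are not given in the sources used here. The sums were 999939, 999907 and 999896. TPM keeps no depth. Depth was estimated from genes with 1 RefSeq transcript of over 1000 bases whose TPM times effective kilobases (length less 200) was above 0 and at most 0.4. Of these, 63.1%, 63.7% and 65.5% lay within 0.15 of a whole fragment, against 30% for even phases at a spacing fixed beforehand. The spacing was instead the best-fitting one for the same values, so these shares are no test of the steps. No counting interval was made from this estimate.

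All 32 members matched RefSeq GRCm38.p6 by Entrez ID and symbol. The members and lists were chosen with earlier results of these data known. All 32 members are named, with Pecam1, Cdh5, marker genes at 0 and the 2 highest genes of a list where a result turns on them; the ratios, Lyve1 and Ly6c2 were added after values were seen. Levels were compared as log2(TPM + 1), with SD over 3 libraries. Spread calls and orders used genes with a mean TPM of 1 or more, over the whole table. With 1 group, no test between conditions was possible. Alternatives were other TPM thresholds, a pseudocount of 0.1, medians, median-of-ratios scaling, rescaling with 87 ribosomal protein genes left out, the 90th percentile and leaving out each replicate; division by the pan-endothelial sum was added after the data were examined. Python 3.11.15, numpy 2.4.6, pandas 2.3.3 and matplotlib 3.10.9 were used.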

Additional observations from a re-analysis of the deposited data

How the results depend on the processing

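Depth is known here as an estimate alone, and 3 libraries of 1 group allow no test between conditions, so these settings show how the descriptions move. No paired analysis was possible because the samples form 1 group. Leaving out each replicate gave 28 to 29 members at 1 TPM or more and 3 to 19 members called for their spread, the lowest without replicate 3 and the highest without replicate 1. The class differences (log2) then ranged from 0.80 to 1.10 for capillary, -2.76 to -2.29 for tip cell, -2.18 to -2.07 for arterial, -2.74 to -2.25 for venous, -0.33 to -0.20 for broadly endothelial and -1.99 to -1.41 for protein C genes. A pseudocount of 0.1 moved the tip cell difference to -3.01 and the venous one to -3.10. Medians in place of means moved the tip cell difference to -3.78 and the broadly endothelial one to -0.39, and members of mean TPM 1 or more alone gave -1.69 for tip cell genes. Members highest in replicate 2 numbered 1 without ribosomal protein genes and 1 under median-of-ratios scaling. Division by the pan-endothelial sum left 3 members highest in replicate 1, 5 highest in replicate 2 and 3 in the order 1, 2, 3. No class difference changed sign. Leaving out the ribosomal protein genes multiplies every TPM by 1.29, 1.24 and 1.23 in replicates 1, 2 and 3. These factors differ between the libraries. Under them 15 members rather than 13 were called for their spread, and 14 rather than 12 had the order 1, 2, 3. Without replicate 3, the mean level of 9 members fell by more than 1.5-fold: Aplnr to 0.911, Selp to 0.419, Madcam1 to 2.18, Ackr1 to 3.65, Esm1 to 1.41, Procr to 3.64, Vwf to 6.71, Ly6c1 to 66.1 and Plvap to 70.8 TPM. Without replicate 1, Sele was listed at 0.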
